A study of Mus musculus with 6 samples.

Results

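Chaperones are proteins that help other proteins fold, keep them from aggregating and hand misfolded ones on for degradation. HSP70 binds short hydrophobic stretches of unfolded clients in cycles of ATP hydrolysis that J-domain proteins start and nucleotide exchange factors end, and HSP90 takes over clients that are nearly folded, with Stip1 bridging both machines. The TRiC chaperonin is a double ring of CCT subunits that encloses actin and tubulin while they fold, and the mitochondrial HSP60/HSP10 pair does the like for proteins imported into the matrix. Many of these genes share the heat shock factor Hsf1 as a transcriptional activator.

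The genes described here are 31 cytosolic and mitochondrial chaperone and chaperonin genes, picked by name and matched by symbol to 31 of the 55414 gene rows. They fall into an HSP70 system of 10 genes, an HSP90 system of 6, 2 small HSPs, 8 TRiC subunits, 4 mitochondrial chaperones and the regulator Hsf1. RNA was sequenced from 6 libraries of TM4 cells, a mouse testis line used as a model of Sertoli cells, 3 labelled VC and 3 labelled control. The series title names vitamin C as the agent, while the agent label of these libraries and the design text name valine, and the group keeps the name VC here. No dose, exposure time or separate culture is stated. P-values therefore measure only the spread between these libraries, which may be technical.

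Values are the authors' TMM-scaled TPM, a level per length. A gene was tested if 3 or more of the 6 libraries reached a value of 1, which kept 29 of the 31 genes and left out Hspa1a and Hspb1. Library depth was 20408425 to 21735450 recovered reads in VC and 20867200 to 22316857 in control. Control replicate 3 stood apart, with a chi-square per degree of freedom of 10.2 to 18.6 against any other library and 2.88 to 7.77 for pairs without it. Column totals ran from 966031 to 983802 in VC and from 1007535 to 1058206 in control. Of the 10 Sertoli markers listed, 5 passed the filter. Wt1, Fshr and Dmrt1 were at 0 in all libraries, Cldn11 was at most 0.135, Clu at most 0.709 and Amh at most 1.17. Inhba (106.1 to 127.5), Gata4 (18.6 to 22.3), Kitl (17.1 to 20.8) and Sox9 (2.83 to 3.96) were expressed.

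Most of the cytosolic folding machinery had slightly lower values in VC than in control on the authors' TMM scale. No single gene of the list passed the limma test across all genes. The constitutive HSP70 gene Hspa8 was at 88.3% of its control mean, the HSP90 gene Hsp90ab1 at 91.7% and the 8 TRiC subunits at 91.5% to 94.5%. The mitochondrial HSP70 gene Hspa9 and the HSP110-family gene Hspa4l were not part of this pattern, with means of 103.0% and 113.3% of control. These percentages depend on the scaling between libraries. The median log2 fold change (VC minus control) of the 29 tested genes was -0.081, beside 0.012 over all tested genes. With libraries scaled to equal totals it was -0.008, beside 0.078 over all tested genes. The stress-inducible genes Hspa1a and Hspa1b and the small HSP gene Hspb1 had very low values in all 6 libraries. Hspa1a and Hspa1b are near-copies whose shared reads may have been split or dropped, so their true levels are uncertain.

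Heat shock elements are shown because Hsf1, a member of the list, acts on other members through them. It binds as a trimer to alternating GAA and TTC units. RefSeq promoter windows (250 bases before to 50 bases after each start, build GRCm38.p6, an earlier build than the GRCm39 used for alignment) were at hand for 25 of the 31 genes, and not for Hspa8, Hspa9, Hsp90aa1, Hsp90ab1, Cct4 and Hsf1. A 3-unit element, spelled GAANNTTCNNGAA or TTCNNGAANNTTC and thereby covering both strands, was present in windows of 4 of these 25 genes, Hspd1, Hspe1, Hsph1 and Chordc1, and in 179 of all 27025 genes with a window (0.662%). The shorter 2-unit form, GAANNTTC or TTCNNGAA, which every 3-unit match contains, was in 15 of the 25 genes and in 17% of all genes. The matched bases are in capitals below, with all overlapping 3-unit matches of a site joined.
Hspe1, plus strand, chr1:55088053-55088082: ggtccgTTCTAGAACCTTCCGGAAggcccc
Chordc1, plus strand, chr9:18292260-18292288: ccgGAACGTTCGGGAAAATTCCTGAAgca
Hsph1, minus strand, chr5:149636280-149636308: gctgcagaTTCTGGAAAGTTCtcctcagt

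The Hspe1 site lies 89 to 72 bases before the Hspe1 start. Hspd1 is read from the opposite strand with a start on the other side of it, so the same bases, 144 to 127 bases before the Hspd1 start, fall in the windows of both mitochondrial chaperonin genes. The Chordc1 site spans its start, and the Hsph1 site lies 16 to 28 bases after 1 annotated start and 37 to 49 bases after another. The log2 fold changes of these 4 genes, VC minus control, were -0.16 for Hspe1, -0.07 for Hspd1, -0.03 for Chordc1 and -0.02 for Hsph1, and none passed the test. A match is a description of letters and does not show that a factor was bound.

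The promoters of the inducible HSP70 genes Hspa1a and Hspa1b are shown because these neighbouring genes are near-copies and cannot be told apart well by short reads. Their 300-base windows on chromosome 17 were alike at 296 positions (98.7%) and differed by C44T, T47C, T249G and C276T (the Hspa1a base first, positions from 1 at the 5′ end of the window). Both held 1 element of the 2-unit kind and none of the 3-unit kind. The 250 bases before the start of Hspa1b follow, with that element in capitals.
Hspa1b, minus strand, chr17:34959239-34959488: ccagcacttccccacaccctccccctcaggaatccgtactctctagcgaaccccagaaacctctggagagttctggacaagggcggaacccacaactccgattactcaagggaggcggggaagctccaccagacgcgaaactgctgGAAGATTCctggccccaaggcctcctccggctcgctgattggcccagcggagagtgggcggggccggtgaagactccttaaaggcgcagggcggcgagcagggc

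Across all 13972 genes tested, limma called 96 (0.687%) at an adjusted p under 0.05, 60 higher (0.429%) and 36 lower (0.258%) in VC, and 0 of the 29 chaperone genes were among them. At an unadjusted p under 0.05 by limma, 12 chaperone genes were lower and 1, Hspa4l, was higher, where 8.2% of all tested genes were lower and 9.05% higher at that p. All 3 VC values lay below all 3 control values in 15 of the 29 genes, against 11.6% of all tested genes, and above them in 3, against 13.9%. Of the 29 genes 24 had a log2 fold change below 0, against 46.3% of all tested genes. Their median was -0.081, beside 0.012 over all tested genes.

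**Figure D1:**
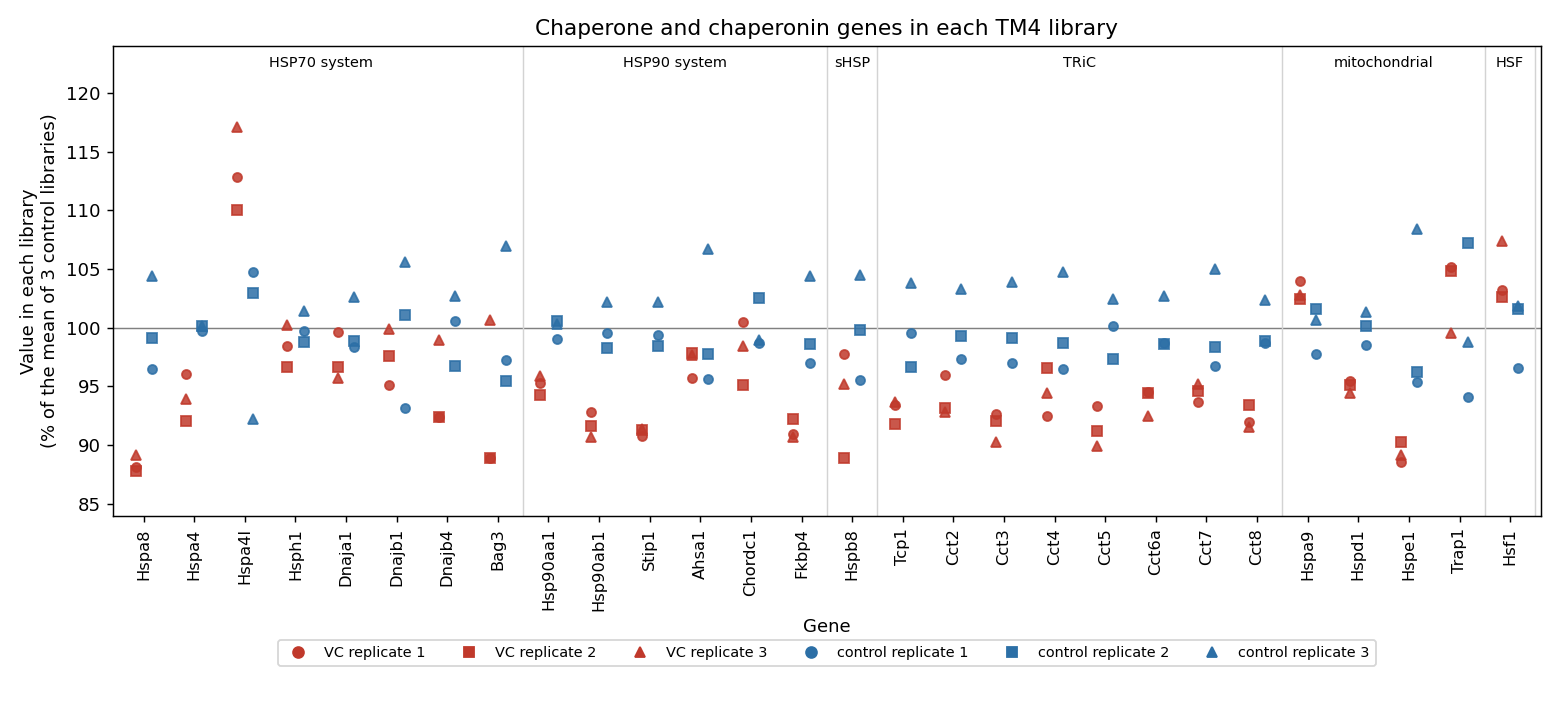
Value of each chaperone gene in each library as a percentage of that gene's mean over the 3 control libraries, with VC (red) left of control (blue) and replicates by symbol. Hspa1b, at under 4 in any library, and the untested Hspa1a and Hspb1 are not drawn. The VC points of the TRiC subunits sit between 89.9% and 96.6% of the control mean, and control replicate 3 (blue triangle) is the highest control in most genes.

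Chaperone genes are abundant, and on the deposited scale abundant genes as a whole were lower in VC. Of the 29 genes, 25 belonged to the 3493 tested genes with the highest mean level. Those 3493 genes had a median log2 fold change of -0.037, and 64.2% of them had one below 0. All VC values lay below all control values in 26.6% of them and above in 11.3%, and 19.5% were lower at an unadjusted p under 0.05. The counts by class given next are to be read against these shares as well as those over all tested genes. These values depend on the scaling and were not recomputed for the 3493 genes with equal totals. With equal totals the median over all tested genes was 0.078, against 0.012 on the deposited scale.

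**Figure D2:**
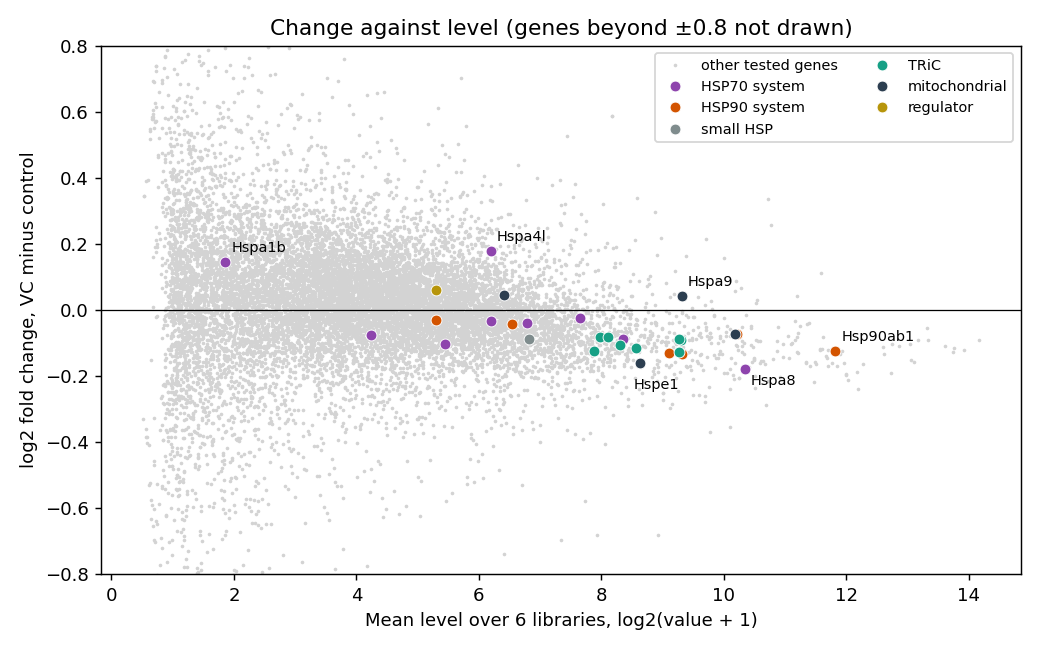
Log2 fold change (VC minus control, vertical axis) against mean level over the 6 libraries (log2 of value + 1, horizontal axis) for all tested genes (grey) and the 29 chaperone genes (coloured by class). On the deposited scale the grey cloud drifts below 0 at the highest levels, where most chaperone genes lie. Hspa4l and Hspa9 lie above 0.

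On the deposited scale, where every VC column total lay below every control total, measures linked to RNA quality were lower in VC. They were not set against each library's total. The summed value of 13 mitochondrially encoded genes was 89866.6 to 95915.0 in VC and 99586.4 to 101617.1 in control. That of 86 ribosomal protein genes was 57714.8 to 60127.3 in VC and 60550.2 to 68354.5 in control, with Rpl10l and Rpl39l at 0. Limma called 0 of these genes and limma-voom 5 of the mitochondrial and 0 of the ribosomal ones, with 5 of the 13 and 26 of 82 tested ribosomal genes lower at an unadjusted p under 0.05. Their part in the lower chaperone values was not tested. Among markers of other cells, those of peritubular myoid cells summed to 391.6 to 401.6 in VC and 608.6 to 667.9 in control, with Acta2 making up most of the sum and called lower in VC by limma, and Myh11 at or near 0 (at most 0.032). The part of these markers in the chaperone values was not tested. Germ cell markers summed to 4.02 to 4.57 in VC and 3.38 to 4.54 in control, with Ddx4 and Stra8 at 0. Macrophage markers summed to 60.5 to 70.6 in VC and 55.5 to 65.3 in control, with Adgre1 at 0, and Leydig and endothelial markers summed to at most 4.08 in any library. In bulk RNA, fewer cells of a type and less RNA per cell cannot be told apart.

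In the HSP70 system the largest difference by p was in Hspa8, the constitutive cytosolic HSP70. Hspa8 was at 1220, 1215 and 1234 in VC libraries, against 1336, 1372 and 1445 in control libraries. The groups did not overlap, and the 3 VC libraries lay within 19.3 units of each other, the controls within 108.8. Its log2 fold change was -0.18 (SE 0.0398, 95% interval -0.27 to -0.08, limma adjusted p = 0.103). The adjusted p was 0.0148 in limma-voom on the recovered reads. That fit called 3.98% of all genes (1.5% as lower) and 2 of the 29 chaperone genes, Hspa8 and Hsp90ab1, both lower. The log2 fold change of Hspa8 was -0.105 with libraries scaled to equal totals (limma adjusted p = 0.111) and -0.055 with quantile normalization (limma adjusted p = 0.408).

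Hspa4l, an HSP110-family gene whose product is known from mouse spermatogenesis, went the other way. It was at 76.6, 74.7 and 79.5 in VC, against 71.1, 69.9 and 62.6 in control. Every VC library was above every control library, with control replicate 3 the lowest. The log2 fold change was 0.18 (SE 0.0561, 95% interval 0.05 to 0.31, limma adjusted p = 0.185), and it was 0.12 without control replicate 3. Its relative Hspa4, a nucleotide exchange factor of HSP70, was at 322.8, 309.2 and 315.4 in VC, against 335.1, 336.3 and 336.4 in control. Hspa4l thus amounted to 24.4% ± 0.763 of Hspa4 in VC and 20.2% ± 1.4 in control (SD, n = 3 each), a ratio taken within each library and so free of the scaling between libraries. It sets a gene with higher values in VC against one with lower values, so its gap between groups is not a separate result. The size of this and other ratios between genes depends on annotated exon length, 11792 bases for Hspa4l and 5528 for Hspa4.

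The other HSP70 partners were not called either. Hsph1, the third HSP110-family member, was at 199.1 ± 3.57 in VC and 202.3 ± 2.66 in control, with a 95% interval of the log2 fold change from -0.10 to 0.05. The J-domain genes Dnaja1, Dnajb1 and Dnajb4 had log2 fold changes of -0.04, -0.03 and -0.08. Their VC values overlapped the control values in each case. Bag3, which links HSP70 and small HSPs to selective autophagy, was at 39.4, 39.4 and 44.6 in VC, against 43.1, 42.3 and 47.4 in control (log2 fold change -0.10, limma adjusted p = 0.476). The log2 fold change of Bag3 was -0.161 without VC replicate 3 and -0.053 without control replicate 3. Over the 9 tested genes of the system the median was -0.038 and 2 had all VC values below all control values (22.2%, against 11.6% of all tested genes and 26.6% of the 3493 with the highest level). The median turned to 0.034 with equal totals, and it was -0.019 without control replicate 3 and -0.071 without control replicate 1.

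The inducible pair had very low values. Hspa1a was at 0.780, 0.918 and 0.963 in VC, against 0.392, 1.10 and 0.528 in control, on 19 to 23 recovered reads in VC and 9 to 26 in control. Hspa1b was at 2.17, 3.89 and 2.57 in VC, against 1.94, 3.10 and 2.41 in control, on 50 to 84 reads in VC and 42 to 69 in control. The groups overlapped in both, and because reads shared by near-copies may be split or dropped, the level of each is uncertain. Their sum amounted to 0.308% ± 0.079 of Hspa8 in VC and 0.228% ± 0.0692 in control (SD, n = 3 each). The limma interval for Hspa1b ran from -0.34 to 0.63 and so covered changes of either sign. Without VC replicate 2 its log2 fold change was -0.03, against 0.15 with all libraries.

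Among HSP90 genes, Hsp90ab1, the constitutive isoform, had the highest level of all 31 genes and ranked 29 among all tested genes. It was at 3503, 3458 and 3423 in VC, against 3759, 3709 and 3857 in control. All VC libraries were below all control libraries, and the log2 fold change was -0.12 (SE 0.0385, limma adjusted p = 0.180). With quantile normalization it was 0.04, and limma-voom on recovered reads gave an adjusted p of 0.0368. Hsp90aa1, the more inducible isoform, was at 1163, 1150 and 1170 in VC, against 1209, 1228 and 1224 in control, again without overlap. Its log2 fold change was -0.07 (95% interval -0.15 to 0.00, limma adjusted p = 0.298), and it was 0.00 with libraries scaled to equal totals. Hsp90aa1 made up 25.1% ± 0.309 of the summed HSP90 level in VC and 24.4% ± 0.398 in control (SD, n = 3 each), with every VC share above every control share by a small margin.

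The co-chaperones split into those that lay below control without overlap and those that did not. Stip1, the HSP70-HSP90 adaptor, was at 604.1, 607.2 and 607.8 in VC, against 661.5, 655.1 and 679.7 in control. The VC libraries lay within 3.7 units of each other, all below the control libraries. Its log2 fold change was -0.13 (SE 0.0308, 95% interval -0.21 to -0.06, limma adjusted p = 0.108). Fkbp4, an immunophilin of steroid receptor complexes, was at 521.5, 528.7 and 520.1 in VC, against 556.2, 565.4 and 598.9 in control, also without overlap (log2 fold change -0.13, limma adjusted p = 0.159). Ahsa1, which activates the HSP90 ATPase, was at 91.2 ± 1.07 in VC and 94.0 ± 5.53 in control, and Chordc1 at 38.2 ± 1.06 in VC and 39.0 ± 0.872 in control (SD, n = 3 each). In both, the groups overlapped. The median of the 6 genes was -0.098, and it was -0.026 with equal totals and -0.011 with quantile normalization. All VC values lay below all control values in 4 of them, against 11.6% of all tested genes and 26.6% of the 3493 with the highest level. With equal totals they did so in 3, against 4.6% of all tested genes.

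All 8 TRiC subunit genes had lower means in VC, by similar amounts. Cct5 was at 601.6, 588.1 and 579.7 in VC, against 645.6, 627.7 and 660.5 in control (log2 fold change -0.13, SE 0.0346, limma adjusted p = 0.143). Cct8 was at 360.9, 366.5 and 359.1 in VC, against 387.1, 388.0 and 401.7 in control (log2 fold change -0.11, SE 0.0311, limma adjusted p = 0.143). In 7 of the 8 subunits all VC values lay below all control values, where 11.6% of all tested genes and 26.6% of the 3493 genes with the highest level did so. Cct4 was the exception, at 238.8, 249.4 and 243.9 in VC, against 249.3, 254.9 and 270.6 in control, where 1 VC value was just above the lowest control value. The log2 fold changes ran from -0.13 to -0.08 with a median of -0.098. With equal totals the median was -0.026. All VC values then lay below all control values in 4 of the 8 subunits, against 4.6% of all tested genes.

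**Figure D3:**
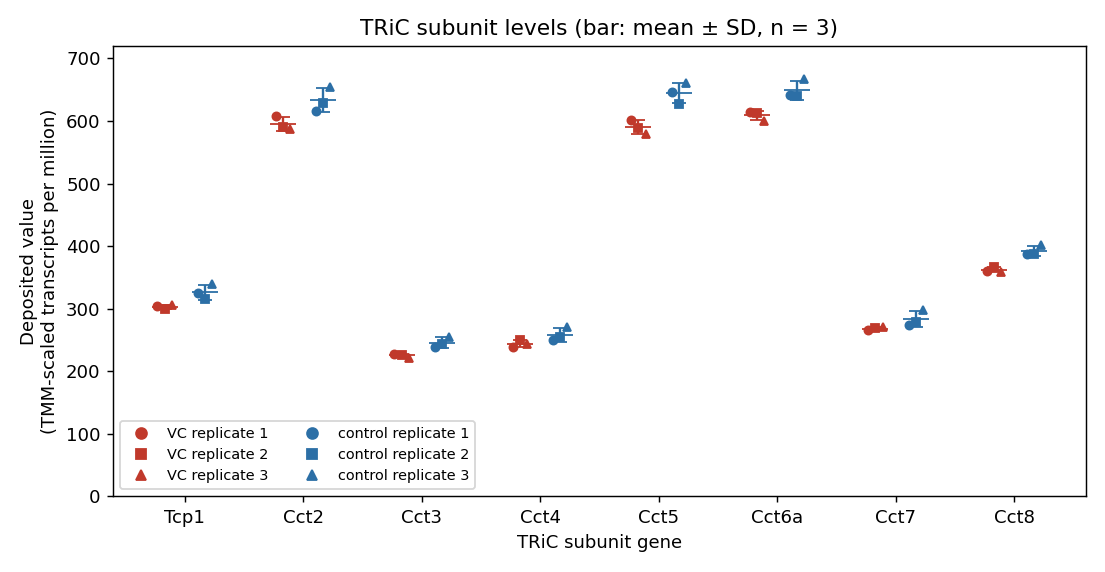
Deposited value of each TRiC subunit gene in each library, with VC (red) left of control (blue), symbols for replicates and bars for mean ± SD (n = 3). Cct2, Cct5 and Cct6a are at 579.7 to 666.5, the other subunits at 221.6 to 401.7, and the VC points lie below the control points in all but Cct4.

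The deposited values of the subunits of this equimolar complex were not equal, and their proportions were nearly the same in both groups. The highest subunit value was 2.70 to 2.71 times the lowest in VC and 2.61 to 2.71 times in control, with Cct3 the lowest in every library. These values are per annotated exon length, 6370 bases for Cct3 and 2557 for Cct2, so the order of subunits depends on the annotation. In VC replicate 1 Cct3 had 11897 recovered reads and Cct2 12756, while Cct4 had fewer than either, 8233. Cct5 made up 18.4% ± 0.202 of the summed TRiC value in VC and 18.8% ± 0.297 in control (SD, n = 3 each), and its shares overlapped. Control replicate 3 was the highest control in all 8 subunits, and in 23 of the 29 tested chaperone genes. Without it the TRiC median was -0.075, and 7 of 8 subunits had all VC values below the remaining control values, where 17.3% of all tested genes and 32.7% of the 3493 highest genes did.

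The classes were also set against each library's total, which removes the scaling between libraries. TRiC summed to 0.327%, 0.328% and 0.328% of the total in VC, against 0.334%, 0.335% and 0.335% in control. The HSP90 system summed to 0.602%, 0.602% and 0.606% in VC, against 0.624%, 0.624% and 0.614% in control. Neither class overlapped between groups. The HSP70 system did not overlap either, at 0.209%, 0.209% and 0.215% in VC, against 0.216%, 0.221% and 0.218% in control. Hspa8 made up most of that sum, and the median log2 fold change of the HSP70 system was 0.034 with equal totals. On the deposited scale the sum in VC was 93.1% of control for TRiC and 92.4% for the HSP90 system, and as a share of the total it was 97.9% for TRiC and 97.1% for the HSP90 system. The mitochondrial class overlapped, at 0.228%, 0.229% and 0.230% in VC, against 0.224%, 0.230% and 0.224% in control. An exact permutation test of 3 against 3 libraries cannot go below p = 0.1, so none was used for these sums.

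The 4 mitochondrial chaperone genes differed in direction, with a median log2 fold change of -0.015. The median turned to 0.057 both with equal totals and with quantile normalization, and it was -0.041 without control replicate 1 and -0.009 without control replicate 2. Hspe1, the HSP10 lid of the chaperonin, was at 370.5, 377.5 and 373.1 in VC, against 398.9, 402.6 and 453.4 in control. The groups did not overlap, and control replicate 3 was far above the other controls. Its log2 fold change was -0.16 (SE 0.0532, limma adjusted p = 0.205), and -0.10 without control replicate 3. Hspd1, the HSP60 barrel, was at 1134, 1131 and 1123 in VC, against 1171, 1190 and 1205 in control (log2 fold change -0.07, limma adjusted p = 0.294). Hspe1 amounted to 33.1% ± 0.378 of Hspd1 in VC and 35.2% ± 2.14 in control (SD, n = 3 each). The annotated exons of Hspd1 and Hspe1 share 112 bases on opposite strands, and the labels do not state whether strand was kept.

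Hspa9, the mitochondrial HSP70, was at 652.5, 642.9 and 645.0 in VC, against 613.8, 637.5 and 631.8 in control. Every VC library was above every control library, by a small margin, with a log2 fold change of 0.04 (95% interval -0.03 to 0.12, limma adjusted p = 0.519). It was 0.116 with equal totals (limma adjusted p = 0.112), 0.129 with quantile normalization (limma adjusted p = 0.128) and 0.027 without control replicate 1. Set against Hspa8 within each library, a ratio chosen after the values were seen, Hspa9 amounted to 53.5%, 52.9% and 52.3% of Hspa8 in VC, against 45.9%, 46.5% and 43.7% in control. These ratios do not depend on the scaling between libraries. They could not overlap, since all VC values lay above control for Hspa9 and below control for Hspa8. Their gap between groups is therefore not a separate result. Trap1, the mitochondrial HSP90, was at 87.6, 87.3 and 82.9 in VC, against 78.4, 89.3 and 82.3 in control, with overlapping groups (limma adjusted p = 0.705).

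**Figure D4:**
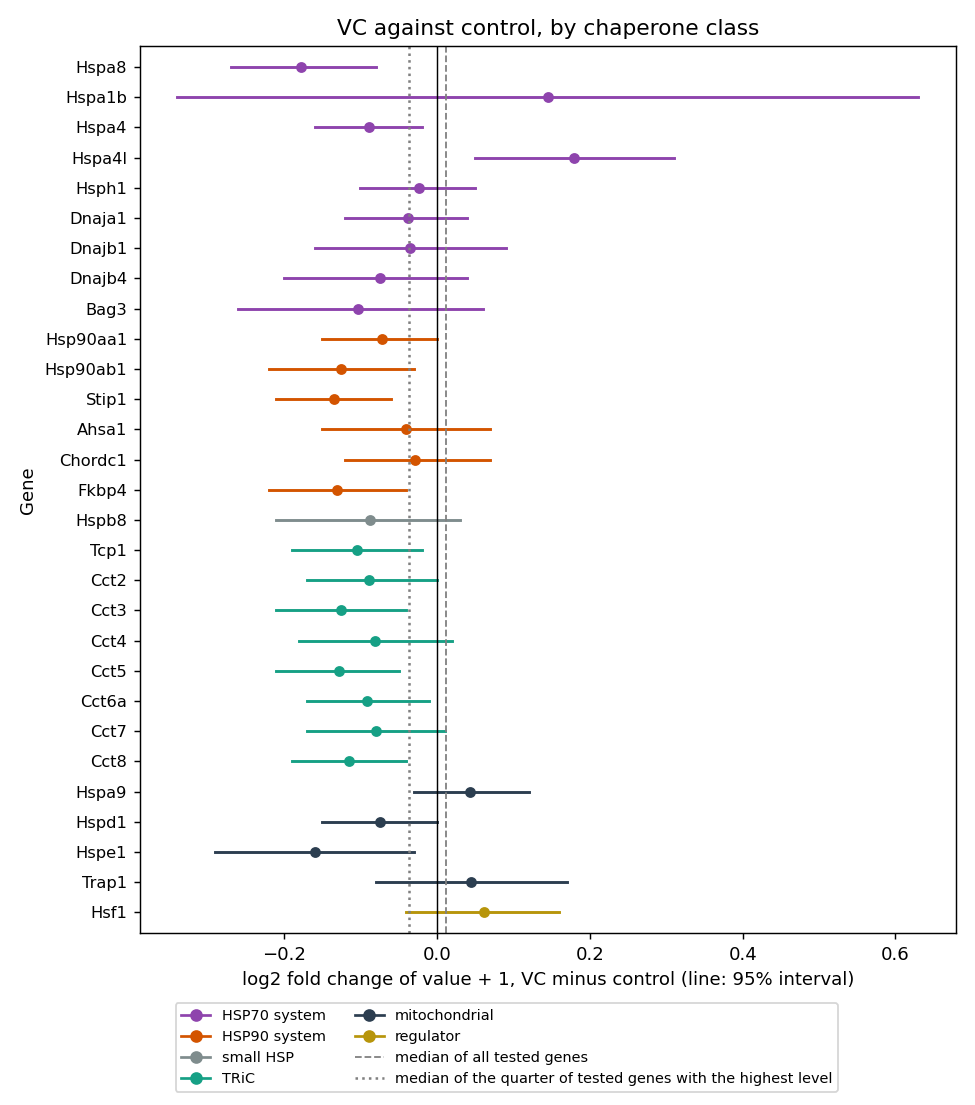
Log2 fold change of value + 1 (VC minus control) of the 29 tested chaperone genes with limma's 95% interval, coloured by class. Dashed and dotted lines mark the medians of all tested genes (0.012) and of the 3493 with the highest level (-0.037). Hspa8 and Hspe1 lie farthest left, and Hspa4l is alone in having an interval above 0.

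Of the small HSPs, which hold unfolded proteins without ATP, Hspb8 was expressed and Hspb1 was not. Hspb8, a partner of Bag3, was at 113.0, 102.8 and 110.1 in VC, against 110.5, 115.4 and 120.8 in control, with overlap (log2 fold change -0.09, limma adjusted p = 0.415). Its log2 fold change was -0.049 without VC replicate 2 and -0.056 without control replicate 3. Hspb1 was at 0.473, 0.629 and 0.120 in VC, against 0.626, 0.976 and 0.701 in control. These values rest on 1 to 5 recovered reads in VC and 5 to 8 in control, and Hspb1 was not tested. Hsf1 itself was at 39.0, 38.8 and 40.6 in VC, against 36.5, 38.4 and 38.5 in control. All VC values lay above all control values, with a log2 fold change of 0.06 (95% interval -0.04 to 0.16, limma adjusted p = 0.489).

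In the wider folding network the differences were also small. Of 80 further genes in 6 lists, 75 passed the expression filter, and limma called 0 in either direction and limma-voom 2. By limma 10 were lower and 0 higher at an unadjusted p under 0.05 (13.3% and 0%, against 8.2% and 9.05% of all tested genes). Of the 3493 with the highest level 19.5% were lower at that p, and the share higher was not counted. All VC values lay below all control values in 22 of the 75 (29.3%) and above in 4 (5.33%). The shares were 11.6% and 13.9% of all tested genes and 26.6% and 11.3% of the 3493 with the highest level. The median log2 fold change was -0.059 over 25 other HSP70 and J-domain proteins and cofactors, -0.073 over 19 other HSP90 co-chaperones and -0.070 over 9 prefoldin and TRiC helper genes. It was 0.026 over 15 genes of mitochondrial folding and quality control, 0.009 over 3 other small HSPs and -0.066 over 4 further heat shock factors and partners.

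Named by smallest p, Ruvbl2, an AAA ATPase that works with HSP90, was at 113.8 to 115.3 in VC, against 125.5 to 139.7 in control (log2 fold change -0.21, limma adjusted p = 0.0943). Cdc37, the kinase-specific HSP90 co-chaperone, had -0.15 (limma adjusted p = 0.160). Bag1, an HSP70 nucleotide exchange factor, had -0.24 (limma adjusted p = 0.133) and the ribosome-associated J protein Dnajc2 -0.15 (limma adjusted p = 0.148). Pdcl3 and the prefoldin subunit Pfdn4, which work with TRiC, had -0.13 and -0.09. The mitochondrial proteases Afg3l2 and Yme1l1 had -0.12 and -0.07, the small HSPs Hspb6 and Hspb2 0.04 and -0.03, and the heat shock factor Hsf2 and the factor-binding gene Hsbp1 -0.11 and -0.06, with limma adjusted p of 0.301 or more for each of these 8.

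The size of the class medians, and the direction of those of the HSP70 system and the mitochondrial chaperones, depended on how libraries were scaled. Equal totals added 0.052 to 0.072 to the log2 fold change of each of the 29 genes. With libraries scaled to equal totals the median over all tested genes was 0.078, and the TRiC median was -0.026, which is 0.104 below it. On the deposited scale TRiC was 0.110 below the median of all genes. The direction of Hsp90aa1, Hsph1, Dnaja1, Dnajb1, Ahsa1 and Chordc1 turned with equal totals. All VC values then lay below all control values in 9 of the 29 genes, against 4.6% of all tested genes, and above them in 5, against 25.8%. With quantile normalization, which gives every library the same distribution of values, TRiC was 0.035 below the median of all genes.

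**Figure D5:**
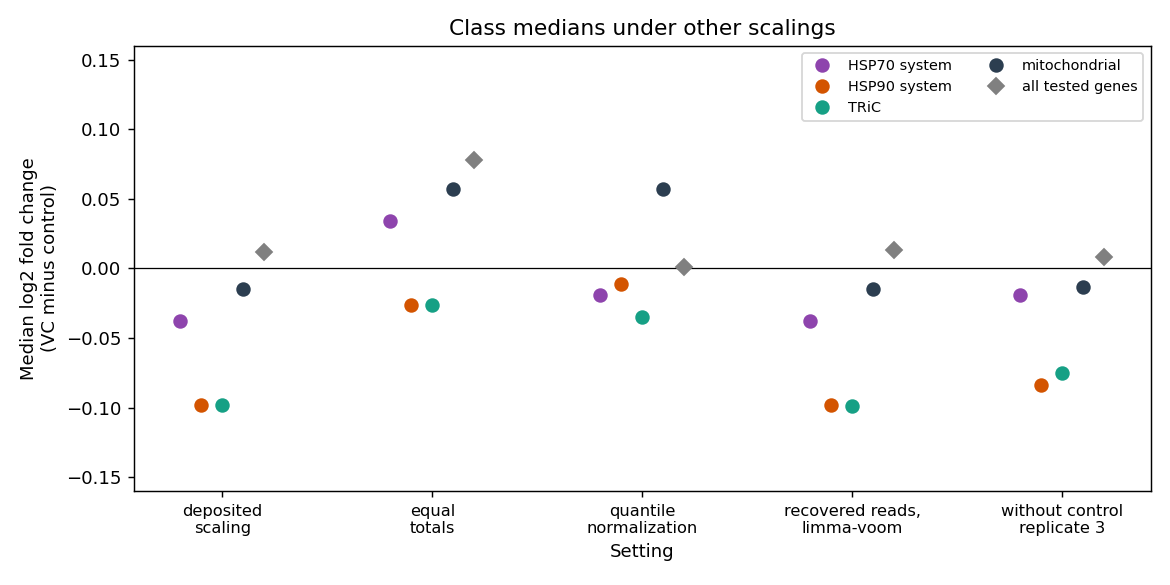
Median log2 fold change (VC minus control) of the HSP70, HSP90, TRiC and mitochondrial classes and of all tested genes (grey diamonds) on the deposited scale and in 4 other settings. TRiC and HSP90 lie below all tested genes in each setting shown, by least with quantile normalization.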

How the data were processed

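RNA from 6 TM4 libraries (3 VC, 3 control) was sequenced after Trizol extraction and TruSeq library preparation, per the labels' protocols. HISAT2 and GRCm39 are named in the submitters' processing notes. For counter, annotation release and strandedness nothing is given in the sources used. Deposited values are a signal, TPM times 1 TMM factor per library, going by the name and column totals of the authors' table. Group letter and number tied columns to samples.

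Symbols were found for 52081 of 55414 identifiers in GENCODE M21, which also gave exon lengths on GRCm38. Multiplied by exon length and divided by the worth of 1 read, 98.74% to 98.89% of the values in a library were whole (within 0.1 read, judged up to 1000 reads). These recovered reads served to judge depth and for 1 alternative.

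The comparison, VC minus control, was fitted with limma 3.58.1 under R 4.3.3 on log2(value + 1) over 13972 genes, with empirical Bayes, an intensity trend and Benjamini-Hochberg adjustment over all genes, two-sided, at a threshold of 0.05. No covariate was used. Fold changes on this scale understate those of low genes. The procedure was tested on simulated reads, with increases larger than the differences of the tested chaperone genes. That test does not show how it handles differences of their size. Intervals cover 95%. The limma-voom alternative kept the deposited TMM scaling, a choice made after values were seen. Tables and figures used Python 3.11.15, pandas 2.3.3 and matplotlib 3.10.9.

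The 31 genes, their classes and the further lists were chosen with earlier results of these data known. Values in every library are given for the 2 members of a class with the smallest p, the 6 members with the highest level, Hspa1a and Hspa1b, and for others chosen after their values were seen. Ribosomal protein genes were taken by symbol pattern. From each further list the 2 genes with the smallest p are named. Alternatives changed the pseudocount, filter, scaling, tool, pairing and libraries.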

Additional observations from a re-analysis of the deposited data

How the results depend on the processing

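Counts of calls, class medians and the 29 genes were recomputed under 14 alternatives (Hspa1b fails the filter at 5), and overlap between groups under other scalings and without 1 library. Related genes, markers, ratios and shares were not recomputed. The count of all genes called by limma was 96, and it was 30 with no filter, 183 with a minimum value of 5, 217 with equal totals, 548 by limma-voom on recovered reads, 82 without control replicate 3 and 0 to 1 without any other library. Chaperone genes called were 0 in each setting except limma-voom, with 2. Chaperone genes lower at an unadjusted p under 0.05 were 12, and 2 with equal totals, 1 with quantile normalization and 7 to 14 without 1 library, with 7 without VC replicate 2 or VC replicate 3. The share of all tested genes lower at that p was 8.2% by limma as reported, and it was not counted in the alternatives. Chaperone genes with all VC values below all control values were 15, and 9 with equal totals, 7 with quantile normalization and 15 to 18 without 1 library. Over all tested genes the share was 11.6%, and 4.6% with equal totals. Without control replicate 3 it was 17.3%, beside 15 chaperone genes. The share was not counted for quantile normalization or without any other library.

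With equal totals, where the median log2 fold change of all genes was 0.078, the medians were 0.034 for the HSP70 system, -0.026 for the HSP90 system, -0.026 for TRiC, 0.057 for mitochondrial chaperones and -0.008 for all 29 genes. With quantile normalization they were -0.011 for the HSP90 system, -0.035 for TRiC, 0.057 for mitochondrial chaperones and -0.013 for all 29 genes. No other alternative moved a class median by more than the replicate spread. In 10 of the 29 genes the sign turned in at least 1 alternative, and in 9 without counting equal totals, which by construction adds a near-constant 0.072 (median) to each gene. With equal totals the log2 fold change was 0.050 for Hsph1, 0.034 for Dnaja1, 0.037 for Dnajb1, 0.001 for Hsp90aa1, 0.030 for Ahsa1 and 0.042 for Chordc1. With quantile normalization it was 0.029 for Hsph1, 0.005 for Dnaja1, 0.030 for Hsp90aa1, 0.038 for Hsp90ab1, 0.003 for Cct2 and 0.032 for Hspd1. Without 1 library it ran from -0.083 to 0.005 for Dnajb1 and from -0.073 to 0.006 for Ahsa1, both above 0 without control replicate 3, and from -0.034 to 0.277 for Hspa1b, below 0 without VC replicate 2. The cause of the other moves was not tested.

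Same-numbered libraries showed no shared deviation: their deviations from their group means correlated at -0.0186, -0.0115 and 0.00506 across genes. That cannot tell whether they were handled as pairs, which the labels do not state. With the replicate block limma called 0 genes, 2039 had an unadjusted p under 0.05 against 2410 without it, and 8 chaperone genes were lower at that p. The share of all tested genes lower at that p was not counted with the block. Depth limits Hspa1a, Hspa1b and Hspb1, on at most 84 recovered reads in any library.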
